A study of Oryctolagus cuniculus with 3 samples.

Results

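To describe the regression of atherosclerosis, the abdominal aorta of the recovery group was set against that of the model group, which makes 2 of the 3 arrays of the series. The members are all 43603 gene probes of a single-colour Agilent rabbit array. The rabbits were male New Zealand whites, 3 months old at the start. The recovery rabbit (day 60) had received 4 weeks of chow with 1% cholesterol and 6% peanut oil, with balloon injury of the abdominal aorta 3 days into that diet, and then 4 weeks of chow without added cholesterol or fat. The methods describe these last weeks as caloric restriction, with daily intake reduced by 20%, whereas the sample labels speak of a normal diet. The model rabbit (day 30) was taken after the same 4 weeks of cholesterol diet and balloon injury, so both aortas carry the injury and the earlier diet. The control rabbit (day 0) was uninjured and on normal chow, and its level is given only for orientation. Time since injury and the change of diet cannot be told apart here. Each array holds RNA of 1 aorta, which the authors chose among 4 rabbits per group by pathological sections and intravascular ultrasound.

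A plaque of this kind forms where a denuded, lipid-laden vessel wall draws in monocytes, which become foam cells, while smooth muscle cells move into the intima and lay down matrix. When the lipid load is taken away, foam cells leave or die, endothelium regrows over the injured surface and smooth muscle and matrix make up more of what remains. The gene groups described below include oxygen sensing, immediate early transcription, chemokine signalling, matrix turnover and monocyte identity, and were chosen with earlier results of these data known. In whole aorta, fewer cells of a type and less RNA per cell cannot be told apart.

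The deposited values are log2 signals. Values under 4.374, the 40th percentile of all gene probes, were set to that floor, and a difference is recovery minus model on the log2 scale. Where 1 of the arrays lay below the floor, the fold is a lower bound and is written as "at least". Per array, 26162 probes exceeded the floor, and 27604 did so in recovery or model. Of these, 24720 were above it in both, and 1442 in recovery alone. The number in model alone was the same, which the equal count per array fixes in advance. A further 15999 probes lay below the floor in both arrays and have no fold.

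At the threshold of 2-fold, 2040 probes were higher in recovery than in model (7.39% of the 27604) and 2362 were lower (8.56%), while 23202 (84.1%) did not reach it. Bounds made up 242 of the higher and 464 of the lower probes. They also made up 2178 of the 23202, whose true difference may be larger, and 21024 were measured within 2-fold. Among the 24720 measured probes the median difference was 0.019 and the median size of a difference 0.398. The central 90% of them ran from -1.21 to 1.21, so that a 2-fold difference lies within the bulk of these differences. Levels in the 2 arrays correlated across these probes with a Pearson's r of 0.954, which describes genes of 2 aortas and not replicates. Because every group has a single array, the spread between rabbits is unknown, no test was possible, and each fold compares 2 aortas rather than 2 conditions.

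The split between higher and lower depends on the scaling. The 8 E1A spiked-in control probes above the floor, which report RNA added to every sample, were all higher in recovery, by 0.12 to 0.82 with a median of 0.56. When that median was subtracted from the recovery array, 776 probes were higher (2.91% of 26691) and 5846 were lower (21.9%). The values that follow are on the deposited scale, and genes that lost their call on the spiked-in scale are marked. Of the gene groups given with a median, smooth muscle alone changed sign on that scale. The unprinted medians of adipocyte, striated muscle and adventitial fibroblast markers, fatty acid synthesis, lipoprotein uptake and innate sensing also changed sign. A higher floor, at the 60th percentile, ended the call of dimmer genes such as ADM, HK2, SLC16A1, FADS2, PTX3, ADAMTS9, PROCR, SOD-2 and BICD1 among the higher ones. Among the lower ones it ended those of MMP11, MMP12, PCSK1N, CA2, NR1D1, HHIP, FOXN4, HDDC3, RNF135 and ALB, and 14 further named or listed genes lay under it in both arrays.

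**Figure D1:**
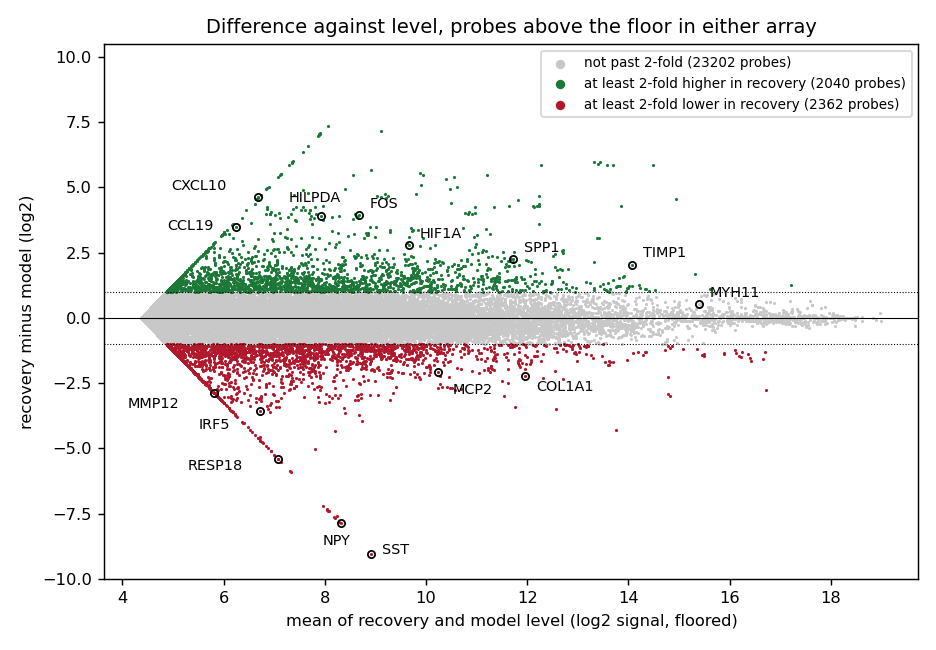
Recovery minus model (log2, vertical axis) against the mean of the 2 floored log2 signals (horizontal axis) for the 27604 probes above the floor in recovery or model, with 2040 probes at least 2-fold higher in recovery in green and 2362 lower in red. Points on the slanted edges are lower bounds, among them SST and NPY at the bottom, whereas FOS, HILPDA and TIMP1 were above the floor in both arrays.

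The balance of higher and lower probes changed with the level. The dimmest probes were called least often, as the floor entails, since a 2-fold difference must rise that far above it. With probes binned by the higher of their recovery and model levels, 3.49% were higher and 4.92% lower among 6503 probes from the floor to 6, and 8.89% were higher and 11.7% lower among 8086 probes from 6 to 8. From 8 to 10 the shares were 8% higher and 9.77% lower. Above a level of 10 the balance turned, with 9.21% higher and 7.36% lower among 3626 probes from 10 to 12, and 8.35% higher and 6.13% lower among 2430 probes at 12 and above. Among calls, lower probes were thus the commoner kind at low and middling signals and higher probes at strong signals. The median of the measured differences did not follow this. It was 0.112 from the floor to 6, -0.082 from 10 to 12 and -0.035 at 12 and above. From the floor to 6, bounds made up 216 of 320 lower and 141 of 227 higher probes.

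**Figure D2:**
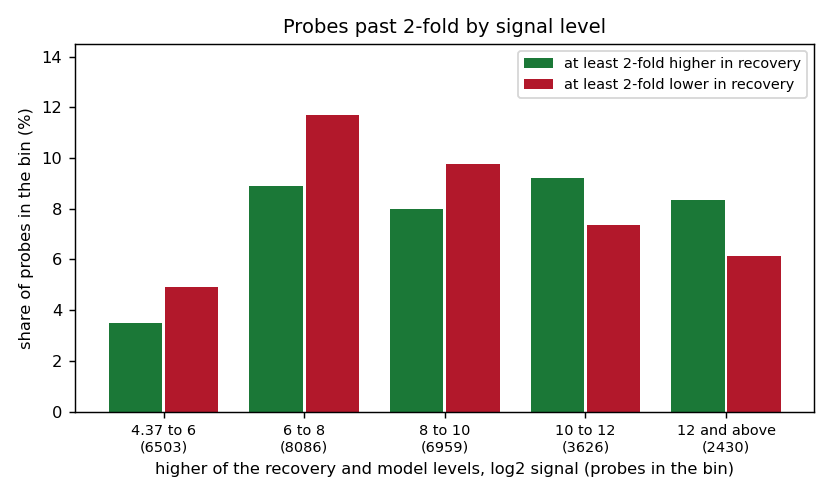
Share of probes at least 2-fold higher (green) and at least 2-fold lower (red) in recovery than in model, in percent of the probes of each bin, by the higher of the 2 log2 signals. The lower share exceeded the higher share in the 3 dimmest bins and fell below it in the 2 brightest.

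The far tails were not alike. Measured differences of at least 16-fold were seen at 59 higher and only 6 lower probes. Bounds of that size were seen at 24 higher and 31 lower probes. From 4-fold to 8-fold the measured counts were close, at 217 higher and 221 lower probes, and from 8-fold to 16-fold they were 71 and 47. Of the differences of at least 16-fold, most rises were thus measured in both arrays, whereas most falls ended below the floor in recovery.

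The array carries several probes for many transcripts, numbered in blocks of up to 5, and these give the only measure of error within an array. Neighbouring probes of a block differed in recovery minus model by a median of 0.0918 (90th percentile 0.309), against 0.593 for neighbours from different blocks. No block held probes called in both directions, but a call was often not shared by the whole block. Among blocks of 2 or more probes, mostly above the floor, 543 held a probe 2-fold higher, and in 300 of these every probe was. For lower probes the counts were 647 and 363. The 5 probes from A_04_P002731 ran from 0.22 to 7.36. When each block was counted once by its median, 953 of 12914 blocks were higher (7.38%) and 961 were lower (7.44%). This is an error of measurement in 1 aorta and says nothing of the spread between rabbits.

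The deposited table has no gene names. A gene of the study's cluster lists was given to a probe only where 1 probe alone lay within 0.006 of both listed log2 ratios, those of model and of recovery to control, and where fewer than 0.05 such matches were expected by chance. Of 3715 listed genes, 601 were assigned in this way, with 12.4 chance matches expected among them. In recovery or model 397 were above the floor, of which 97 were higher (24.4%), 104 lower (26.2%) and 196 not past 2-fold, with a median difference of -0.12. These shares exceed 7.39% and 8.56% because the study listed genes that differed between its groups on these same arrays, so counts of named genes are no independent evidence of a direction. For 34 of the 601 genes the median of the probe's block did not match the listed ratios, and such names are called doubtful and given no values.

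Genes of the hypoxia response with an assigned probe were higher in recovery. All 5 members with a probe, of 22 listed, were at least 2-fold higher, with a median difference of 2.34, and all 5 remained so on the spiked-in scale. When genes were named by the medians of probe blocks, 5 of 7 members were higher and 0 lower, the lowest at -0.28. Among all 912 genes above the floor named in that way, 18.1% were higher and 28% lower. HIF1A, the oxygen-regulated subunit of the hypoxia-inducible factor, had a log2 signal of 11.06 in recovery, 8.25 in model and 6.19 in control, a 6.98-fold difference between recovery and model. The 3 probes of its block gave 2.71 to 2.81. EPAS1, the related factor subunit abundant in endothelium, had 8.24 in recovery, 6.44 in model and 5 in control (3.47-fold). Both factor genes were thus highest in recovery and lowest in control.

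The 3 other members encode proteins induced by that factor. HILPDA, a lipid droplet protein that restrains triglyceride breakdown, was at 9.87 in recovery, 5.98 in model and 7.26 in control (14.9-fold). ANGPTL4, a secreted inhibitor of lipase activity, was at 9.53 in recovery, 7.19 in model and 9.50 in control (5.07-fold). ADM, which encodes the vasodilator peptide adrenomedullin, was at 7.33 in recovery, 5.24 in model and 6.08 in control (4.27-fold). For these 3 the model aorta was the lowest of the 3 aortas, and ANGPTL4 lay at the control level in recovery.

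Immediate early genes, which cells transcribe within minutes of a stimulus, were higher in 3 of 4 members above the floor, with a median difference of 1.87. FOS, a subunit of the AP-1 transcription factor, was at 10.64 in recovery, 6.71 in model and 8.08 in control, the largest measured difference of any named gene at 15.2-fold. NR4A3, an orphan nuclear receptor, was at 7.93 in recovery and 6.02 in model (3.76-fold) and below the floor in control. CTGF, a matricellular protein induced by stretch and TGF-beta, was at 12.12 in recovery, 10.29 in model and 6.38 in control (3.55-fold). Its relative CYR61 did not move with it, at 11.98 in recovery, 12.15 in model and 9.18 in control. The same 3 of 4 members were higher on the spiked-in scale. By block medians 3 of 5 members were higher and 0 lower, the lowest at -0.96. Among all 912 genes above the floor named in that way, 18.1% were higher.

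Glycolysis and glucose uptake had 6 members above the floor, of which 3 were higher and 1 lower, with a median of 1.33, and these counts held on the spiked-in scale. By block medians 4 of 9 members were higher and 1 lower, with a median of 0.83. Over all 912 genes named in that way, 18.1% were higher and 28% lower. HK2, the hexokinase that commits glucose to the cell, was at 7.11 in recovery, under the floor in model and at 6.86 in control, so that recovery exceeded model at least 6.66-fold. SLC16A1, a transporter of lactate and other monocarboxylates, was at 6.92 in recovery, under the floor in model and at 7.82 in control (at least 5.83-fold). PFKFB3, which makes the allosteric activator of phosphofructokinase, was at 5.20 in recovery, under the floor in model and at 7.74 in control, which allows only a bound of 1.78-fold. These 3 genes were below the floor in the model aorta alone, and PFKFB3 and SLC16A1 stayed under the control level in recovery.

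ALDOC, an aldolase isoform, went the other way, at 6.53 in recovery, 7.74 in model and 13.61 in control (2.31-fold lower in recovery than in model). The remaining higher member has a doubtful name. Of the tricarboxylic acid cycle and respiration list, UQCRC1, a core subunit of respiratory complex III, was at 9 in recovery, 7.45 in model and 9.90 in control (2.94-fold), and the other member with a probe has a doubtful name. Neither was past 2-fold on the spiked-in scale. By block medians 2 of 5 members of the respiration list were higher and 1 was lower, at -1.42. Over all 912 genes named in that way, 18.1% were higher and 28% lower.

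The few named lipid genes mostly lay near their model level. The 4 members above the floor of cholesterol synthesis and sterol control did not reach 2-fold, with a median of -0.4. EBP, a sterol isomerase of cholesterol synthesis, was at 7.80 in recovery, 8.04 in model and 13.91 in control. ACAT2, an acetyl-CoA acetyltransferase, was at 8.56 in recovery, 9.12 in model and 12.71 in control. CD36, a receptor for fatty acids and oxidized lipoproteins, was at 8.90 in recovery, 8.59 in model and 13.61 in control. In each case recovery lay close to model and far under control.

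FADS2, a desaturase of polyunsaturated fatty acids, was the exception in its list, at 6.85 in recovery, 4.82 in model and 7.09 in control (4.07-fold). THRSP, a regulator of lipogenesis, was at 5.13 in recovery and 5.03 in model against 11.81 in control. ACAA2, a thiolase of mitochondrial fatty acid oxidation, was at 8.66 in recovery, 8.06 in model and 10.59 in control, and was the sole assigned member of its list, as was CD36 above the floor in lipoprotein uptake. Over all 912 genes above the floor named by block medians, 18.1% were higher and 28% lower. By that naming, 2 of 8 fatty acid oxidation genes were higher and 2 lower, from -1.43 to 4.19. In lipoprotein uptake 1 of 3 genes was lower. Beside these genes, adipocyte markers were low in both aortas: ADIPOQ and PPARG were below the floor in recovery and in model and both at 10.85 in control. FABP4, the adipocyte fatty acid binding protein, was at 11.71 in recovery, 12.12 in model and 17.04 in control. Adipocyte markers thus did not separate recovery from model. Of the 4 adipocyte members above the floor 0 were lower and 1 was higher, under a doubtful name.

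**Figure D3:**
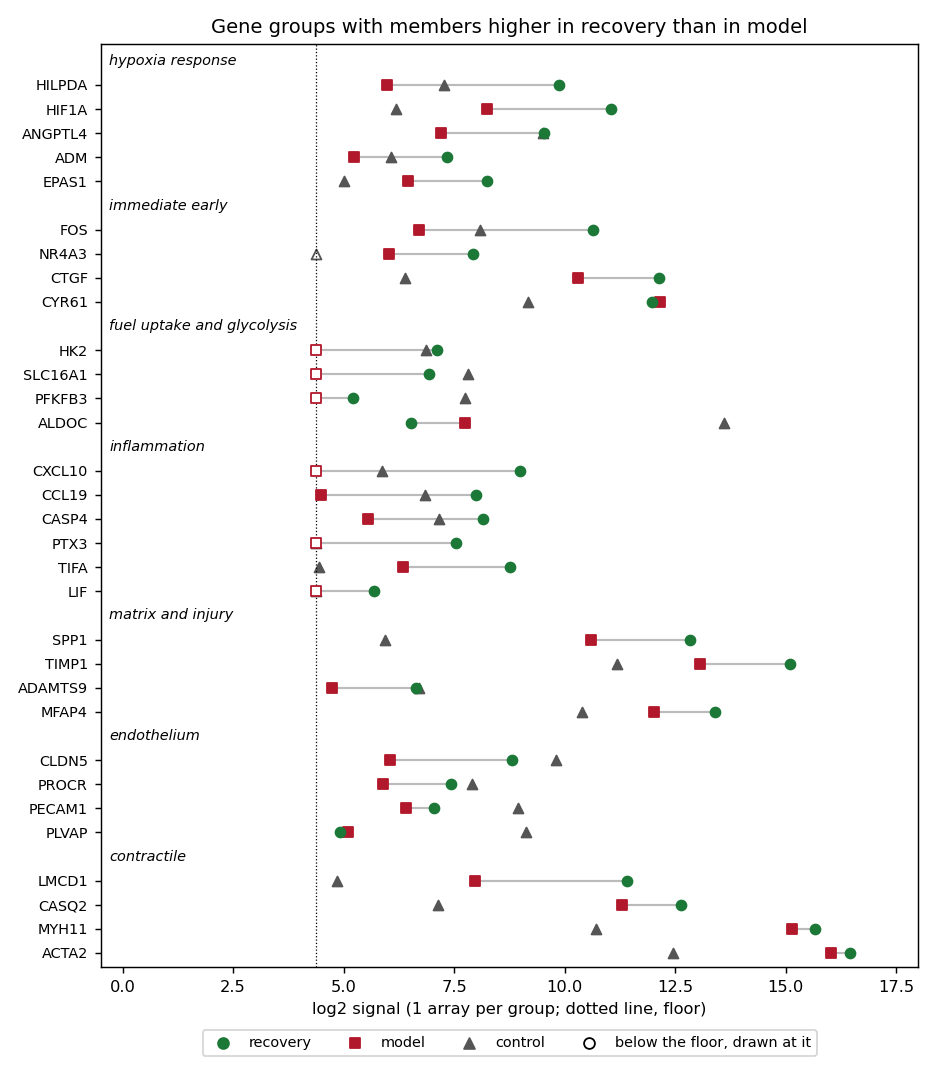
Log2 signal (horizontal axis) of named genes in the recovery (green circles), model (red squares) and control aorta (grey triangles), grouped by function, with 1 array per group and the floor of 4.374 as a dotted line. All 5 hypoxia genes lay higher in recovery than in model, CXCL10, PTX3 and HK2 started below the floor in model, and MYH11 and ACTA2 lay close together in recovery and model.

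Chemokines and cytokines had 6 members above the floor, and all 6 differed at least 2-fold, 4 higher and 2 lower in recovery. CXCL10, an interferon-induced chemokine for T cells, was at 8.997 in recovery, under the floor in model and at 5.86 in control, which puts recovery at least 24.6-fold above model. The 5 probes of its block gave 4.62 to 4.92. CCL19, a chemokine that guides dendritic cells and naive lymphocytes, was at 7.99 in recovery, 4.50 in model and 6.83 in control (11.2-fold). The model value of CCL19 lay only just above the floor.

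IL17B, a cytokine of the interleukin 17 family, was at 11.49 in recovery, 9.99 in model and 4.55 in control (2.82-fold). LIF, a cytokine of the interleukin 6 family, was at 5.69 in recovery and below the floor in model and control (at least 2.48-fold). On the spiked-in scale IL17B and LIF were not past 2-fold, so that 2 members were higher and 2 lower there. LTB, a membrane lymphotoxin of lymphocytes, was below the floor in recovery, at 5.46 in model and at 8.17 in control (at least 2.13-fold lower). MCP2, which rabbit RefSeq lists as a neutrophil peptide gene and which is counted here by its symbol, was at 9.19 in recovery, 11.28 in model and 5.17 in control (4.26-fold lower). CCL5 and IL10 were below the floor in both aortas.

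Some genes of innate defence outside the chemokines were also higher in recovery. The list of innate sensing had 2 members above the floor, CASP4, which was higher, and a lower one with a doubtful name. CASP4, the caspase that senses bacterial lipopolysaccharide in the cytosol, was at 8.16 in recovery, 5.54 in model and 7.15 in control (6.15-fold). PTX3, a soluble pattern recognition pentraxin made by vascular cells, was at 7.53 in recovery and below the floor in model and control (at least 8.93-fold). TIFA, an adaptor that links TRAF6 to NF-κB, was at 8.76 in recovery, 6.34 in model and 4.43 in control (5.36-fold), and its 3 probes gave 2.12 to 2.46. ITIH4, an acute phase protein, was at 7.62 in recovery, 4.42 in model and 5.33 in control (9.17-fold). Its model value, like that of CCL19, was near the floor. TIFA, CASP4, PTX3 and ITIH4 are named for the size of their rise.

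Both members of the antioxidant and metal defence list were higher. The mitochondrial superoxide dismutase, listed as SOD-2, was at 7.58 in recovery, 6.24 in model and 8.50 in control (2.53-fold), with 1.30 to 1.499 over 5 probes. NOX4, a hydrogen peroxide producing oxidase of vascular cells, was at 7.60 in recovery and 6.32 in model (2.43-fold) and below the floor in control. Neither passed 2-fold on the spiked-in scale. By block medians 3 of 4 members of this list were higher and 0 lower, beside 18.1% higher among all 912 genes named in that way.

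Matrix genes moved both ways. Of 7 collagens and matrix genes above the floor 2 were higher, 2 lower and 3 within 2-fold, with a median of -0.39. SPP1, encoding osteopontin, was at 12.83 in recovery, 10.59 in model and 5.94 in control (4.73-fold). FMOD, the collagen-binding proteoglycan fibromodulin, was at 7.80 in recovery and 6.76 in model (2.07-fold) and below the floor in control. In contrast COL1A1, the main chain of type I collagen, was at 10.84 in recovery, 13.08 in model and 13.66 in control, 4.71-fold lower in recovery than in model. HAPLN1, which links hyaluronan to proteoglycans, was at 4.73 in recovery and 6.28 in model (2.93-fold lower) and below the floor in control. COL8A1, a short-chain collagen of injured vessels, was at 16.84 in recovery, 16.98 in model and 12.83 in control. On the spiked-in scale FMOD dropped out and 3 members were lower. MFAP4, a microfibril protein of elastic fibres, was at 13.39 in recovery, 12.03 in model and 10.38 in control (2.58-fold), and was not past 2-fold on that scale.

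In the list of matrix proteases and inhibitors 2 of 6 members were higher and 3 lower, with a median of -1.09. TIMP1, a secreted inhibitor of metalloproteinases, was at 15.10 in recovery, 13.06 in model and 11.18 in control (4.11-fold). ADAMTS9, a protease of versican and aggrecan, was at 6.62 in recovery, 4.74 in model and 6.70 in control (3.69-fold). The metalloproteinases named here were all lower. MMP12, the macrophage elastase, was below the floor in recovery and control and at 7.26 in model (at least 7.42-fold lower in recovery). MMP16, which is anchored in the cell membrane, was at 7.85 in recovery, 9.35 in model and 6.87 in control (2.82-fold lower), with -1.49 to -1.38 over 3 probes. MMP11, a stromal metalloproteinase, was at 5.87 in recovery, 7.16 in model and 5.41 in control (2.44-fold lower). TIMP4, a further inhibitor, was at 5.43 in recovery, 6.31 in model and 9.79 in control, a difference of -0.88. The inhibitors thus differed in direction, while the 3 metalloproteinases were lower. On the spiked-in scale TIMP4 was past 2-fold as well, which made 4 members lower.

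Smooth muscle markers, which define the tissue, were above the floor in both aortas for all 12 members with a probe. Of these, 11 were within 2-fold and 1 was higher, with a median of 0.45 that changed sign to -0.11 on the spiked-in scale. MYH11, the smooth muscle myosin heavy chain, was at 15.66 in recovery, 15.14 in model and 10.71 in control. ACTA2, smooth muscle actin, was at 16.45 in recovery, 16.02 in model and 12.45 in control. ACTG2, the enteric smooth muscle actin, was at 15.997 in recovery, 15.12 in model and 11.43 in control, with differences of 0.83 to 0.93 over 5 probes. PDLIM3, an actinin-binding protein of muscle, lay on the other side, at 6.88 in recovery and 7.73 in model, and below the floor in control. The named contractile genes thus mostly lay near their model level. Of all 27604 probes above the floor in recovery or model 84.1% did not reach 2-fold either, so the count does not set contractile genes apart. CASQ2, a calcium store of the sarcoplasmic reticulum, was the 1 higher member, at 12.63 in recovery, 11.29 in model and 7.14 in control (2.54-fold), and its 3 probes gave 0.93 to 1.51. It was not past 2-fold on the spiked-in scale.

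LMCD1, a LIM domain cofactor that restrains GATA factors, was among the largest measured rises, at 11.41 in recovery, 7.97 in model and 4.84 in control (10.9-fold). FAM150B, a secreted ligand of the ALK receptor, was at 9.88 in recovery and 6.63 in model (9.51-fold) and below the floor in control. SCRG1 was at 7.83 in recovery and 5.46 in model (5.17-fold) and below the floor in control, with 2.15 to 2.38 over 5 probes. MYO1D, an unconventional myosin, was 5.75-fold higher, PTP4A3, a prenylated phosphatase, 5.24-fold higher and RWDD2A 5.17-fold higher. BICD1, a dynein adaptor, was at least 5.03-fold higher. The remaining bounds, FAM189A2, CDC42EP4, INPP4A, ACTR1B and BYSL, ran from at least 2.88-fold to at least 4.03-fold, and BYSL was not past 2-fold on the spiked-in scale.

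Endothelial markers were partly higher in recovery. CLDN5, the claudin of endothelial tight junctions, was at 8.81 in recovery, 6.04 in model and 9.80 in control (6.81-fold). PROCR, the endothelial protein C receptor, was at 7.42 in recovery, 5.88 in model and 7.90 in control (2.90-fold), and was not past 2-fold on the spiked-in scale. The other members moved less. PECAM1, a junction protein of endothelium and platelets, was at 7.04 in recovery, 6.42 in model and 8.94 in control. CD34 was at 5.23 in recovery and 5.05 in model against 8.35 in control, and PLVAP, the diaphragm protein of fenestrae, at 4.92 in recovery and 5.09 in model against 9.13 in control. Of 5 members above the floor 2 were thus higher and 0 lower, with a median of 0.63, and every one of the 5 lay under its control level in recovery. Over all 397 assigned genes above the floor 24.4% were higher. By block medians 3 of 9 endothelial members were higher and 0 lower, beside 18.1% higher and 28% lower among all 912 genes named in that way.

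Neuronal genes were the largest group of lower markers. Of 7 markers of neurons and Schwann cells above the floor 6 were lower in recovery and 0 higher, with a median of -2.13. SST, which encodes the peptide somatostatin, was at 1.88 in recovery, under the floor, at 13.44 in model and at 4.44 in control, at least 536-fold lower in recovery than in model. NPY, the sympathetic neuropeptide Y, was below the floor in recovery and control and at 12.25 in model (at least 235-fold lower), and its 5 probes gave -7.88 to -7.60. Both genes were near or below the floor in every aorta but that of the model rabbit.

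The other members included structural and synaptic genes. SYT1, the calcium sensor of synaptic vesicles, was under the floor in recovery, at 7.84 in model and under the floor again in control (at least 11.1-fold lower in recovery, with -3.79 to -3.34 over 5 probes). NEFH, the heavy neurofilament chain, was under the floor in recovery and control and at 6.401 in model (at least 4.07-fold lower in recovery). GAP43, a growth cone protein, was likewise under the floor in recovery and control and at 6.17 in model (at least 3.46-fold lower). Both had a signal in the model aorta alone. TH, the rate-limiting enzyme of catecholamine synthesis, was at 5.77 in recovery, 7.90 in model and 4.72 in control (4.38-fold lower). Outside the list, a pair of secretory granule genes among the largest bounds had the same pattern. RESP18 was under the floor in recovery and control and at 9.78 in model (at least 42.4-fold lower in recovery). PCSK1N, an inhibitor of prohormone convertase, was also under it in recovery and control and at 7.26 in model (at least 7.4-fold lower). PCSK2, a prohormone convertase of the granule that was picked after its value had been seen, went the other way, at 6.55 in recovery and 5.30 in model (2.37-fold higher) and under the floor in control.

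The glial marker S100B stood apart, at 9.02 in recovery, 9.76 in model and 13.34 in control, with -0.81 to -0.71 over 5 probes. On the spiked-in scale it was past 2-fold at -1.30, and all 7 neuronal members above the floor were lower. Adrenergic, peptide and channel genes of contraction did not fall with the neuronal ones, since of the 4 above the floor 3 were higher and 0 lower, none of them past 2-fold on the spiked-in scale and 1 of them under a doubtful name. By block medians 2 of 7 genes of that list were higher and 0 lower, beside 18.1% higher among all 912 genes named in that way. With genes named by block medians instead of single probes, 11 of 13 neuronal markers were lower and 0 higher, beside 28% lower among all 912 genes named in that way. Apart from TH and S100B, the named members of the neuronal list thus had a signal clear of the floor in the model aorta alone. Outside the list RESP18 and PCSK1N did so too, but PCSK2 did not. Whether nerve or ganglion tissue differed between the excised pieces was not tested.

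EEF1A2, the elongation factor isoform of neurons and striated muscle, was under the floor in recovery, at 9.89 in model and at 7.91 in control (at least 45.9-fold lower in recovery than in model). Striated muscle markers did not show the same pattern. CKM, muscle creatine kinase, was at 9.08 in recovery, 10.97 in model and 4.90 in control (3.73-fold lower), whereas TNNC2, troponin C of fast fibres, was at 8.73 in recovery, 8.56 in model and 5.005 in control. SGCA, a sarcoglycan, was at 11.92 in recovery, 11.56 in model and 6.07 in control. Of 3 striated members above the floor 1 was lower and 0 higher.

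**Figure D4:**
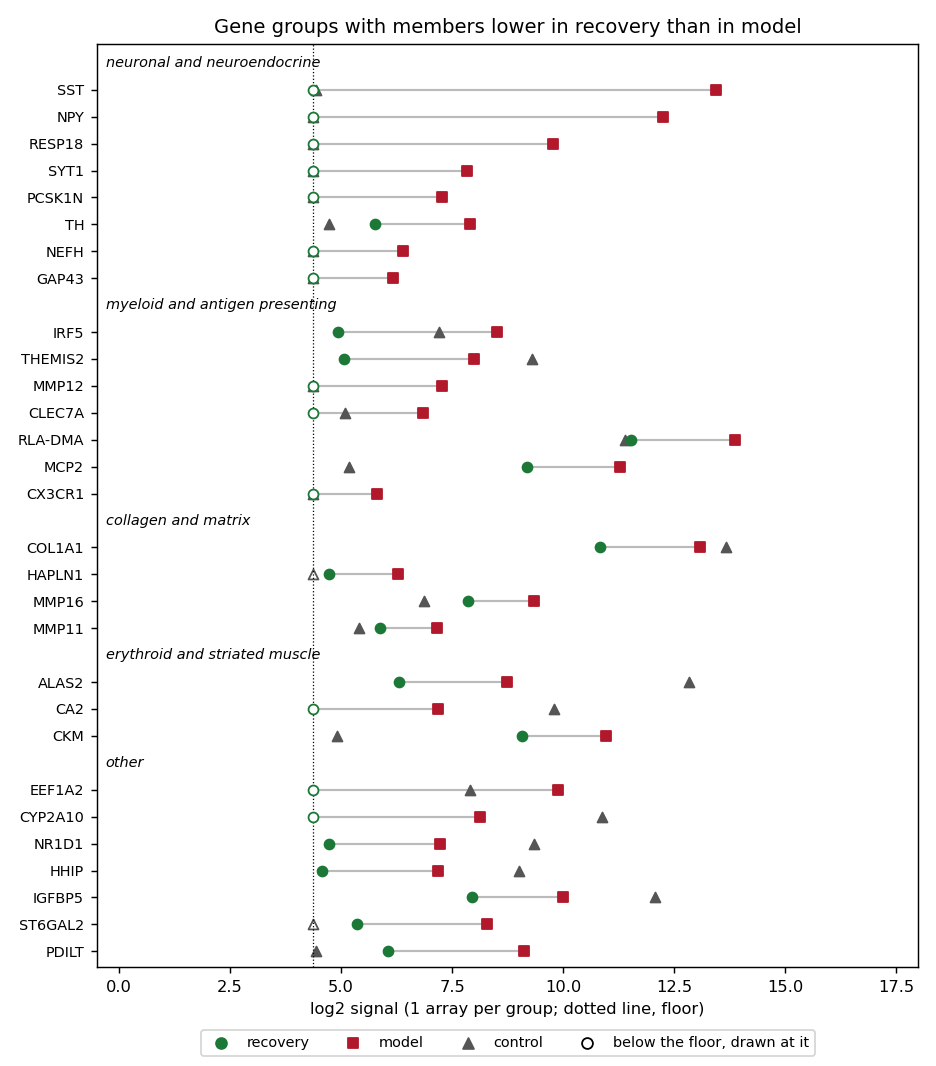
Log2 signal (horizontal axis) of named genes in the recovery (green circles), model (red squares) and control aorta (grey triangles), grouped by function, with 1 array per group and the floor of 4.374 as a dotted line. The neuronal genes other than TH lay at or near the floor in recovery and control and above it in model, whereas ALAS2, CA2, CYP2A10 and NR1D1 were highest in control and lowest in recovery.

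Several genes of monocytes and antigen presenting cells were among the largest falls. IRF5, a transcription factor of inflammatory macrophages, was at 4.94 in recovery, 8.51 in model and 7.21 in control, 11.9-fold lower and the largest measured fall of a named gene. THEMIS2, a signalling scaffold of B cells and macrophages, was at 5.06 in recovery, 8.00 in model and 9.29 in control (7.69-fold lower). RLA-DMA, the rabbit class II chaperone that loads peptides, was at 11.53 in recovery, 13.87 in model and 11.39 in control (5.06-fold lower). CLEC7A, the beta-glucan receptor of myeloid cells, was below the floor in recovery, at 6.84 in model and at 5.09 in control (at least 5.54-fold lower). A further pair of antigen presenting genes, picked after their values had been seen, did not move alike. CD1D, which presents lipids to T cells, was at 7.52 in recovery, 5.96 in model and 7.80 in control (2.94-fold higher). RLA-DRB1, a class II chain, was at 12.76 in recovery, 13.62 in model and 11.18 in control. Its difference of -0.87 was a fall within 2-fold, and on the spiked-in scale it was past 2-fold. The list of interferon response and antigen presentation had IRF5 alone above the floor, and by block medians 1 of 3 members was higher and 1 lower.

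The macrophage list itself had 2 members with a probe, and both were lower. CX3CR1, the fractalkine receptor of monocytes, was under the floor in recovery and control and at 5.80 in model (at least 2.69-fold lower in recovery). MMP12 is the other. By block medians 7 macrophage markers could be counted, and 6 of them were lower and 0 higher, with a median of -1.77, beside 28% lower among the 912 genes above the floor named in that way. MMP12, CX3CR1 and CLEC7A were below the floor in recovery, so that each of their folds is a bound. CLEC7A was outside the lists and was chosen after its value had been seen.

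Of 5 lymphocyte markers with an assigned probe THEMIS2 alone was above the floor in recovery or model. By block medians 3 members were above it, and all 3 were lower, beside 28% lower among all 912 genes named in that way. CD3E, LCK, ZAP70 and CD79B, which belong to the antigen receptors and kinases of T and B cells, were below the floor in recovery and model and between 5.44 and 8.22 in control. ALAS2, the erythroid enzyme of haem synthesis, was at 6.30 in recovery, 8.75 in model and 12.84 in control (5.46-fold lower). HEMGN, an erythroid nuclear protein, was below the floor in recovery, at 4.90 in model and at 9.07 in control. CA2, a carbonic anhydrase of red cells and other tissues, was below the floor in recovery, at 7.18 in model and at 9.80 in control (at least 6.99-fold lower), with -3.19 to -2.75 over 5 probes. Haem and red cell genes were thus in the order control, model, recovery, and the amount of blood in each sample was not tested.

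Of the 4 neutrophil markers above the floor MCP2 alone was past 2-fold. PGLYRP1, a peptidoglycan recognition protein of neutrophil granules, was at 4.47 in recovery, 5.44 in model and 8.82 in control. LCN2, a siderophore-binding protein, was at 4.62 in recovery and under the floor in model and control, which allows a bound of only 1.19-fold, and without a floor 2 members of this list were higher. Fibroblast markers of the adventitia were within 2-fold for 4 of 5 members, with COL1A1 as the 1 lower member. DPT, encoding dermatopontin, was at 7.37 in recovery, 8.18 in model and 12.20 in control. SERPINF1, an anti-angiogenic serpin, was at 8.07 in recovery, 7.98 in model and 11.51 in control. ALB, the albumin gene of hepatocytes, was at 5.09 in recovery, 6.78 in model and 8.41 in control (3.24-fold lower). ITIH4, given above and also on the hepatocyte list, was 9.17-fold higher, while APOA1, APOA2 and TTR were below the floor in both aortas. Of 3 hepatocyte members above the floor 1 was thus higher and 1 lower. By block medians 2 of 6 were higher and 3 lower, beside 18.1% and 28% among all 912 genes named in that way. The cell cycle list had 2 members above the floor, CCNB2 at 4.91 and BUB1 at 4.49 in model, both under it in recovery, too near the floor for a bound of 2-fold. Without a floor all 3 members with a probe were lower, with a median of -2.01.

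The remaining large falls were spread over unrelated functions. CYP2A10, a rabbit cytochrome P450, was below the floor in recovery, at 8.12 in model and at 10.87 in control (at least 13.5-fold lower). NR1D1, the circadian repressor REV-ERBα, was at 4.73 in recovery, 7.22 in model and 9.34 in control (5.62-fold lower), and the hour of killing was not given in the sources used here. HHIP, a decoy receptor for hedgehog ligands, was at 4.58 in recovery, 7.19 in model and 9.01 in control (6.1-fold lower). IGFBP5, an insulin-like growth factor binding protein, was at 7.95 in recovery, 9.999 in model and 12.08 in control (4.14-fold lower). These 4 genes shared the order of control highest and recovery lowest.

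ST6GAL2, a sialyltransferase, and PDILT, a disulphide isomerase relative known from testis, were instead highest in model. ST6GAL2 was at 5.37 in recovery and 8.28 in model (7.53-fold lower) and below the floor in control. PDILT was at 6.07 in recovery, 9.11 in model and 4.43 in control (8.23-fold lower). FOXN4, a forkhead factor, was at least 8.59-fold lower. ENKD1, RNF135, AMACR, HDDC3 and PGER8 were between 4.89-fold and 6.85-fold lower.

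Most of the largest rises have no gene name here. Counted by block, 22 sets of probes had measured rises of at least 16-fold, of which 0 were named, and 8 more had bounds of that size, of which only CXCL10 was named. In the other direction 2 sets had measured falls and 13 had bounds of that size, and SST, NPY, EEF1A2 and RESP18 were the named ones. The largest measured rise was at the single probe A_04_P035877, at 12.69 in recovery, 5.54 in model and 5.39 in control (142-fold). The 5 probes from A_04_P017001 were at 16.32 to 16.62 in recovery, 10.34 to 10.77 in model and 10.21 to 10.41 in control (59.9-fold by the median). These are among the brightest signals of the recovery array, and their probes gave 5.85 to 5.98.

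Some of the 11 falls without a name, A_04_P072312 among them, matched a listed gene with a provisional name, which was left out. The 11 differed in shape. The 5 probes from A_04_P031837 were at 3.27 to 3.84 in recovery, all under the floor, at 11.57 to 11.77 in model and at 3.92 to 4.29 in control (at least 164-fold lower by the median). The single probe A_04_P072312 was measured in every aorta, at 11.61 in recovery, 15.90 in model and 17.29 in control (19.6-fold lower). Among the sets of at least 16-fold, rises thus had a signal in model more often, and falls were mostly of probes below the floor in recovery.

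**Figure D5:**
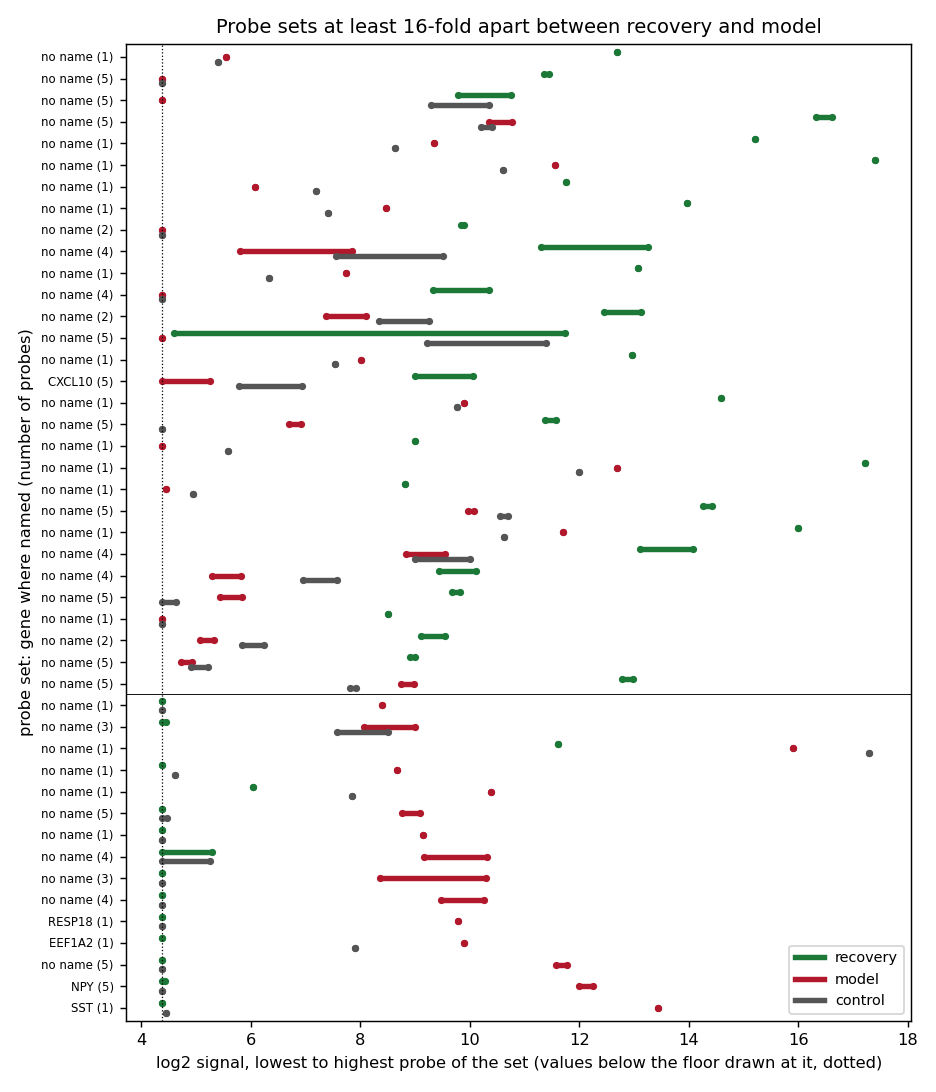
Log2 signal (horizontal axis; values below the floor of 4.374 drawn at it) of the 45 probe sets at least 16-fold apart, 30 higher (above the line) and 15 lower in recovery, as the range over the probes of each set in the recovery (green), model (red) and control aorta (grey). The sets were selected for this distance, so the gap between the bars of recovery and model is not a result. A gene name is given for 5 of the sets.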

How the data were processed

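Total RNA of 3 abdominal aortas was labelled with Cy3 and hybridized to a rabbit array, and the authors read the images with Agilent Feature Extraction (10.7 in the submitters' processing notes). The deposited values are log2 signals that the authors had quantile-normalized in GeneSpring, and the sorted recovery and model columns differed by at most 0.073. Background treatment was not given in the sources used here, and the present and absent calls of the study's filter were not used. The 58 control rows were left out of all counts.

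Differences, counts and names were computed in Python 3.11.15 with numpy 2.4.6 and pandas 2.3.3. The number of arrays, 1 per group, limits the precision, and no test was run. Names came from the study's cluster lists, whose fold values are not reported here. Their match to probes used the ratios to control, so those ratios are equal by construction. Listed names without a symbol were updated through gene ID for 17 genes, and 551 of 601 names are symbols of the RefSeq table (assembly mOryCun1.1). The named genes are the 15 largest measured differences and 10 largest bounds each way, and the largest members of the 37 gene lists, of which 13 mark cell types and 24 functions. Provisional names were left out. The members, lists and thresholds were chosen with earlier results of these data known, and the probe blocks were found after the values had been seen. Lists for mast cells, the proteasome and the lysosome had 0 members with a probe. On simulated arrays the counting and naming steps were checked. No promoter or probe sequences were used.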

Additional observations from a re-analysis of the deposited data

How the results depend on the processing

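Each group has 1 array, so no replicate could be left out. No paired analysis was possible because each group has 1 array. Probes higher and lower in recovery numbered 2040 and 2362. With a threshold of 1.5-fold they numbered 4712 and 4958, and with 4-fold 411 and 441. Without a floor there were 4403 and 4701, with a floor at the 20th percentile 3307 and 3774, and with it at the 60th 1254 and 1270. Shifting the recovery array by the spiked-in controls gave 776 and 5846. Centring by a running median over level gave 1979 and 2457, and probes above the floor in both arrays 1798 and 1898. Counting probe blocks, an alternative chosen after seeing the data, gave 953 and 961, of fewer units.

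No direction reversed among the 87 genes named or listed that were at least 2-fold apart. Under the spiked-in shift and the floors this was fixed in advance, since the shift is under 2-fold and a floor only narrows differences. All 87 kept their call under the running median, and without a floor they could not lose it. Under the spiked-in shift 74 kept it and 13 did not, while the 60th percentile floor left 53 that kept it, 20 that no longer reached 2-fold and 14 that lay under it in both arrays. The naming rule changed how many genes were counted: a limit of 0.01 chance matches gave 191 genes (46 higher, 48 lower) and no limit gave 2140 (190 higher, 213 lower). Names whose block median also matched, chosen after seeing the data, gave 567 (90 higher, 95 lower), and naming by block medians 1372 (165 higher, 255 lower). Dim signals limit the folds: 109 of the 397 named genes above the floor have only a bound.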
